A study of Mus musculus with 6 samples.

Results

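The interferon-induced gene families examined here comprised the genes whose symbols place them in the Ifit, Oas, Gbp, Irf, Ifi or Isg groups or among the immunity-related GTPases (Iigp1, Igtp and the Irgm genes), together with a few single genes, among them Mx1, Mx2, Rsad2, Usp18, Rtp4 and Stat2. Of 20280 gene symbols on the arrays, 67 matched this rule, with 91 probes. In these families 63 genes, with 83 probes, gave a signal that the scanner software called well above background somewhere among the 6 arrays, and 76 of those probes did so on all 6. The other 8 matched probes gave no such signal on any array, and Ifi213, Ifi44l, Oas1g and Oas3 had no probe that did. No probe was matched to Mx1 or Mx2, which were not analysed here. The rule by symbol also took in Irf2bp1, Irf2bp2, Irf2bpl and Isg20l2, which are named after a binding partner or a sequence relative and are not known as interferon-induced genes.

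Interferons are secreted proteins made when a cell senses viral or bacterial material. Type I interferons bind the receptor of Ifnar1 and Ifnar2, and interferon gamma binds that of Ifngr1 and Ifngr2. Through the kinases Jak1, Jak2 and Tyk2 the receptors activate STAT proteins, which bind interferon-stimulated response elements (STAT2 with IRF9) or gamma-activated sites in front of target genes. The targets include proteins that recognise foreign RNA (IFIT and OAS proteins), large GTPases that attack intracellular parasites (GBP proteins and immunity-related GTPases), DNA-binding proteins (the Ifi200 group) and regulators such as the ubiquitin-like ISG15 and its protease USP18. In the mouse uterus the epithelial interferon Ifne is known to be made without infection, and in the ovary some relatives of Oas1a are known from oocytes.

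The arrays measured these genes in the liver, ovary and uterus of female mice of the outbred CD-1 stock that were still immature, at 24 days of age. Control mice were given peanut oil by gavage and treated mice 50 mg per kg body weight per day of BHPF (fluorene-9-bisphenol, a substitute for bisphenol A) in the same way, for 3 days. For each tissue and treatment, RNA pooled from 3 mice was hybridised to 1 array, so no spread between pools was measured within a tissue and no test could be made there. The 3 tissues may have come from the same mice. A level is given below as log2 of the processed intensity minus the 75th percentile of its array, so 0 marks the 75th percentile, and a ratio is the BHPF level minus the control level. As a measure of brightness, the 75th percentile of intensity was 3443 (control) and 3292 (BHPF) in the liver, 7500 and 6389 in the ovary, and 5335 and 4530 in the uterus. Between repeated spots on the same arrays the ratio varied with an SD of 0.14 in the liver, 0.13 in the ovary and 0.14 in the uterus, which covers technical error within an array only.

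Some properties of the arrays bear on the values below. All control arrays lay in 1 row of the slide and all BHPF arrays in the other, so an effect of the row and one of BHPF cannot be told apart. In the authors' table of normalised values the 2 uterine columns were exchanged relative to the scanner files (100% of 38802 probes, within 0.001 on the log2 scale after 1 constant per array). The labels of the scanner files were followed here, and every uterine ratio below has the opposite sign under the headings of that table. The BHPF uterus array also carried liver transcripts. The 10 hepatocyte marker probes were all at least 2-fold higher there than on the control uterus array, with a summed intensity, relative to the 75th percentile, of 37.8 against 2.29 and 360 to 373 in the liver. Over 462 liver-specific probes the median was 0.651% of the liver level (quartiles 0.334% and 1.38%), whereas the summed hepatocyte markers gave 9.87%. With the median share of liver RNA subtracted, the uterine ratio of Iigp1 at its more liver-specific probe moved from 0.31 to 0.18 and that of the first Gbp2b probe from 0.41 to 0.32. At the upper quartile share they were 0.03 and 0.21. At the share of the hepatocyte markers the subtraction took both BHPF levels below -5.07, the lowest level called well above background on that array. They were set to that floor, which gave ratios of -3.82 and -1.95. The direction of these uterine ratios thus depended on the share taken. At the share of the hepatocyte markers Irf7 went from -0.69 to -1.09. Of 10 probes of 8 ovary marker genes, 8 were brightest on both ovary arrays, and all 11 uterus marker probes were brightest on both uterus arrays. Both probes of the ovary marker Foxl2 were brightest in the liver, the first at 5.12 and 5.19 in the control and BHPF liver against 4.31 and 4.35 in the ovary.

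BHPF left most of the interferon-induced families within 2-fold of the control in every tissue. In the liver, 1 of 81 evaluated probes was at least 2-fold higher (Ifit1bl2) and 0 were lower, against 3.1% higher and 1.48% lower among all evaluated probes with a gene symbol. In the ovary, 1 of 80 probes was at least 2-fold higher (Ifit3) and 0 were lower, against 0.498% and 0.661%. In the uterus, 0 of 79 probes changed by 2-fold, against 2.09% higher and 0.803% lower. The median ratio was -0.066 in the liver, 0.0026 in the ovary and -0.042 in the uterus, beside medians of 0, 0.0050 and 0 over all evaluated probes with a symbol. In the liver 46 of the 81 ratios lay below 0, in the ovary 39 of 80 and in the uterus 44 of 79. Over all evaluated probes with a symbol the shares were 47.8%, 46.3% and 48.2%. With scaling on the 50th percentile, 21 of the 81 liver ratios changed sign, 5 of the 80 in the ovary and 7 of the 79 in the uterus. Scaling on the 50th percentile moved the liver median of all probes with a symbol to -0.30 and that of the families to -0.38. Ratios ran from -0.72 to 1.43 in the liver, from -0.94 to 1.41 in the ovary and from -0.99 to 0.61 in the uterus.

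**Figure D1:**
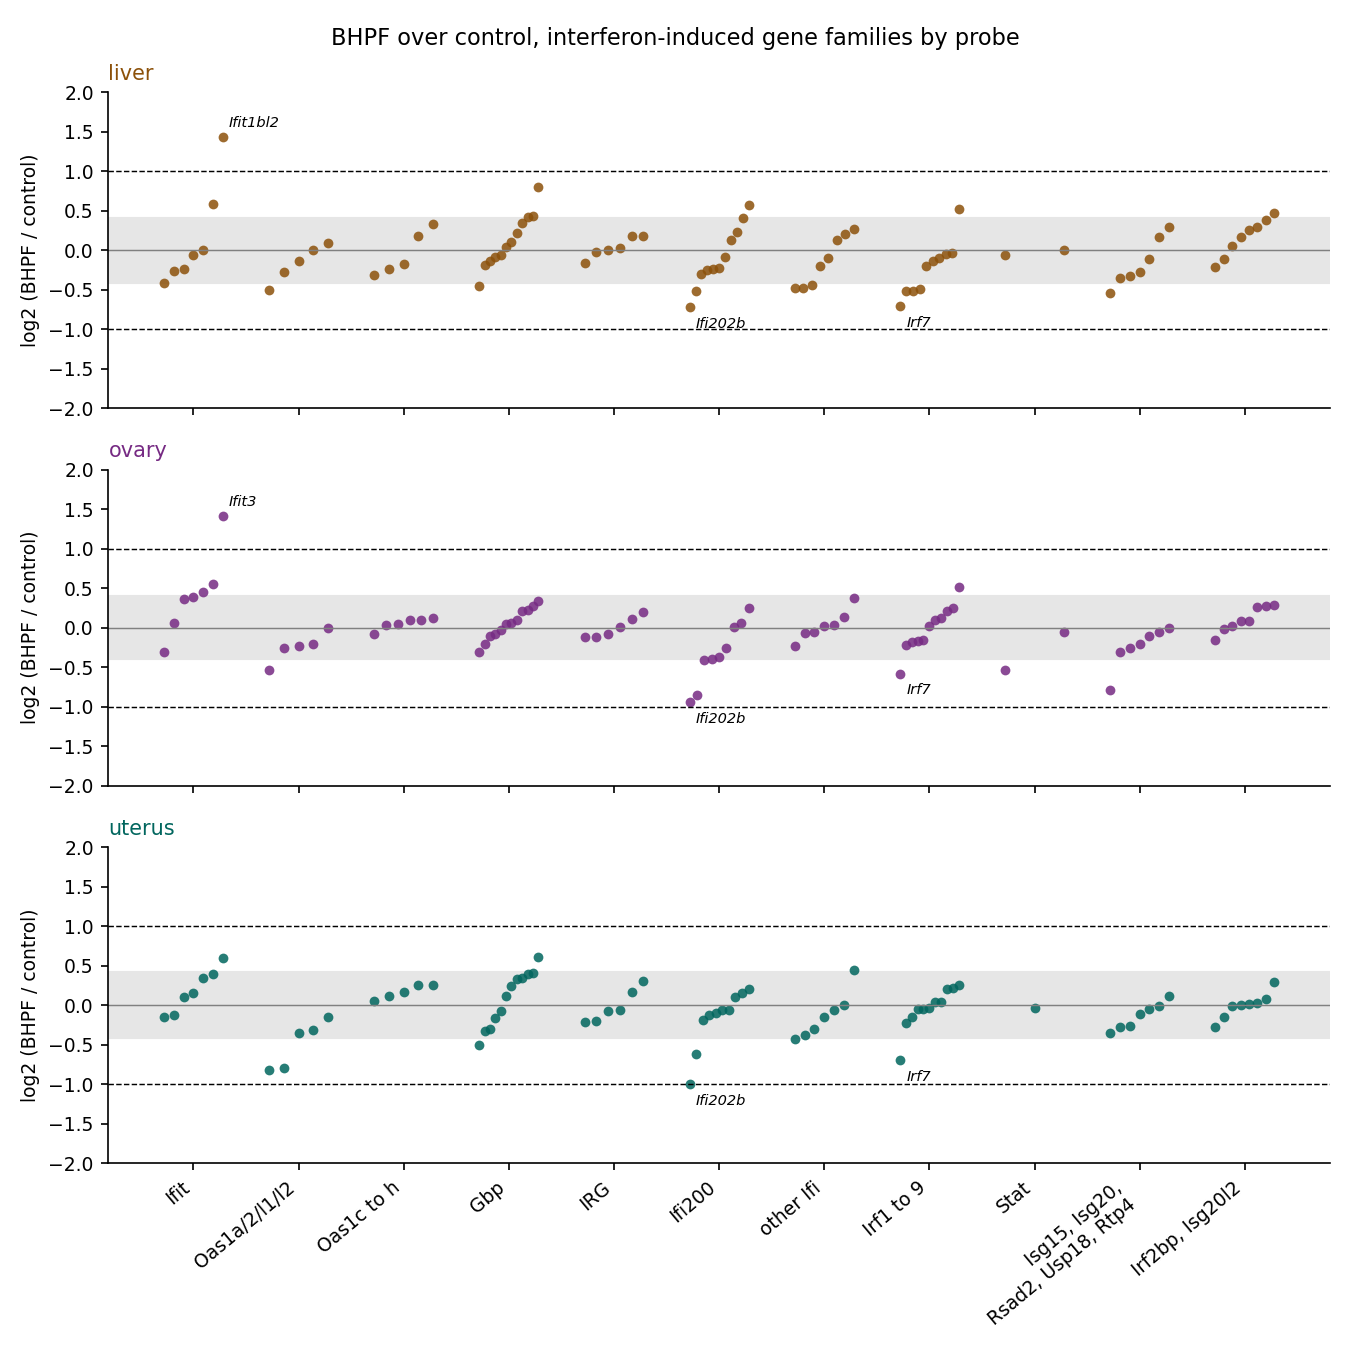
Log2 ratio of BHPF over control for each probe (points) by gene family in the liver, ovary and uterus, 1 array per group. The dashed lines mark 2-fold and the grey band 3 SDs of the ratio between repeated spots; Ifit1bl2 in the liver (1.43) and Ifit3 in the ovary (1.41) lie past 2-fold, and Irf7 and both Ifi202b probes lie below the band in every tissue.

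A shift shared by the tissues was tested with limma on all 44119 probes with a signal on any array, with the 3 tissues in place of replicates and p adjusted by Benjamini-Hochberg. It called 0 of the 83 probes of these families, against 0% of all probes with a symbol in either direction. At an unadjusted p under 0.05, 4 were higher and 4 lower with BHPF, or 9.64%, against 4.04% of all probes with a symbol. The lowest adjusted p among the families was 0.77. With the uterus arrays exchanged, as the authors' table heads them, 0 were called again, and 1 was higher and 1 lower at an unadjusted p under 0.05. Of the 76 probes measured on all arrays, 21 had a ratio below 0 in all 3 tissues, against 13.5% of all 17593 such probes with a symbol, and 12 a ratio above 0 in all 3, against 15.5%. Beyond 3 SDs of the spot noise, which is technical error alone, 3 probes were lower in all 3 tissues, 1 of Irf7 and both of Ifi202b, against 0.29%.

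The tissues differed far more than the treatments did. In the same fit, 60 of the 83 probes were called lower in the ovary than in the liver (72.3%, against 33.1% of all probes with a symbol) and 11 were higher (13.3%, against 30.9%). Between uterus and liver, 35 were lower in the uterus (42.2%, against 29.9%) and 12 higher (14.5%, against 28.1%). Between uterus and ovary, 43 were higher in the uterus (51.8%, against 14.3%) and 7 lower (8.43%, against 13.2%). The median difference over the 83 probes was -1.64 between ovary and liver, -0.28 between uterus and liver and 0.73 between uterus and ovary, beside -0.073, -0.057 and 0.031 over all probes with a symbol. For 39 probes of 30 genes the ovary was called lower than both other tissues, against 6.46% of all probes with a symbol. For 35 probes of 26 genes the liver was called higher than both, against 24.6%, and for 0 probes the uterus was called lower than both, against 4.34%. A probe measured on some arrays only can be counted through the tissue where it is high, so the 76 probes measured on all 6 arrays were also taken alone. Of these, 57 were lower in the ovary than in the liver (75%, against 37% of such probes with a symbol) and 8 higher (10.5%, against 26.2%), and 32 were lower in the uterus than in the liver (42.1%, against 33.3%). The ovary was lower than both other tissues for 36 of them (47.4%, against 6.66%) and the liver higher than both for 32 (42.1%, against 27.7%). Scaling on the 50th percentile in place of the 75th shifted every probe by -0.32 for the ovary against the liver, -0.46 for the uterus against the liver and -0.14 for the uterus against the ovary, and turned the split between uterus and liver from 12 higher and 35 lower to 3 higher and 45 lower. Between uterus and liver, of 47 probes, 27 were called without the uterus control array and 25 without the uterus BHPF array. The count between uterus and ovary rested on all 4 arrays of those tissues: of 50 probes, 12 were called without the ovary control array, 14 without the ovary BHPF array, 7 without the uterus control array and 6 without the uterus BHPF array. Immune cell markers measured on all arrays also differed. The ovary was called lower than the liver for 4 of 4 leukocyte, 7 of 8 macrophage and 4 of 4 Kupffer cell probes. It was lower for 5 of 6 T cell, 6 of 7 neutrophil and 1 of 4 NK cell probes. Of 5 plasmacytoid dendritic cell probes, 3 were lower and 2 higher, and the 1 B cell probe was lower. The uterus was higher than the ovary for 3 of 4 leukocyte, 4 of 6 T cell, 3 of 4 NK cell and 4 of 7 neutrophil probes. It was higher for 2 of 5 plasmacytoid dendritic cell, 0 of 8 macrophage, 0 of 4 Kupffer cell and 0 of 1 B cell probes. Of all such probes with a symbol, 12.7% were higher in the uterus than in the ovary. The part of these cells in the family differences was not tested. In pooled tissue RNA, fewer cells of a type and less RNA per cell cannot be told apart.

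**Figure D2:**
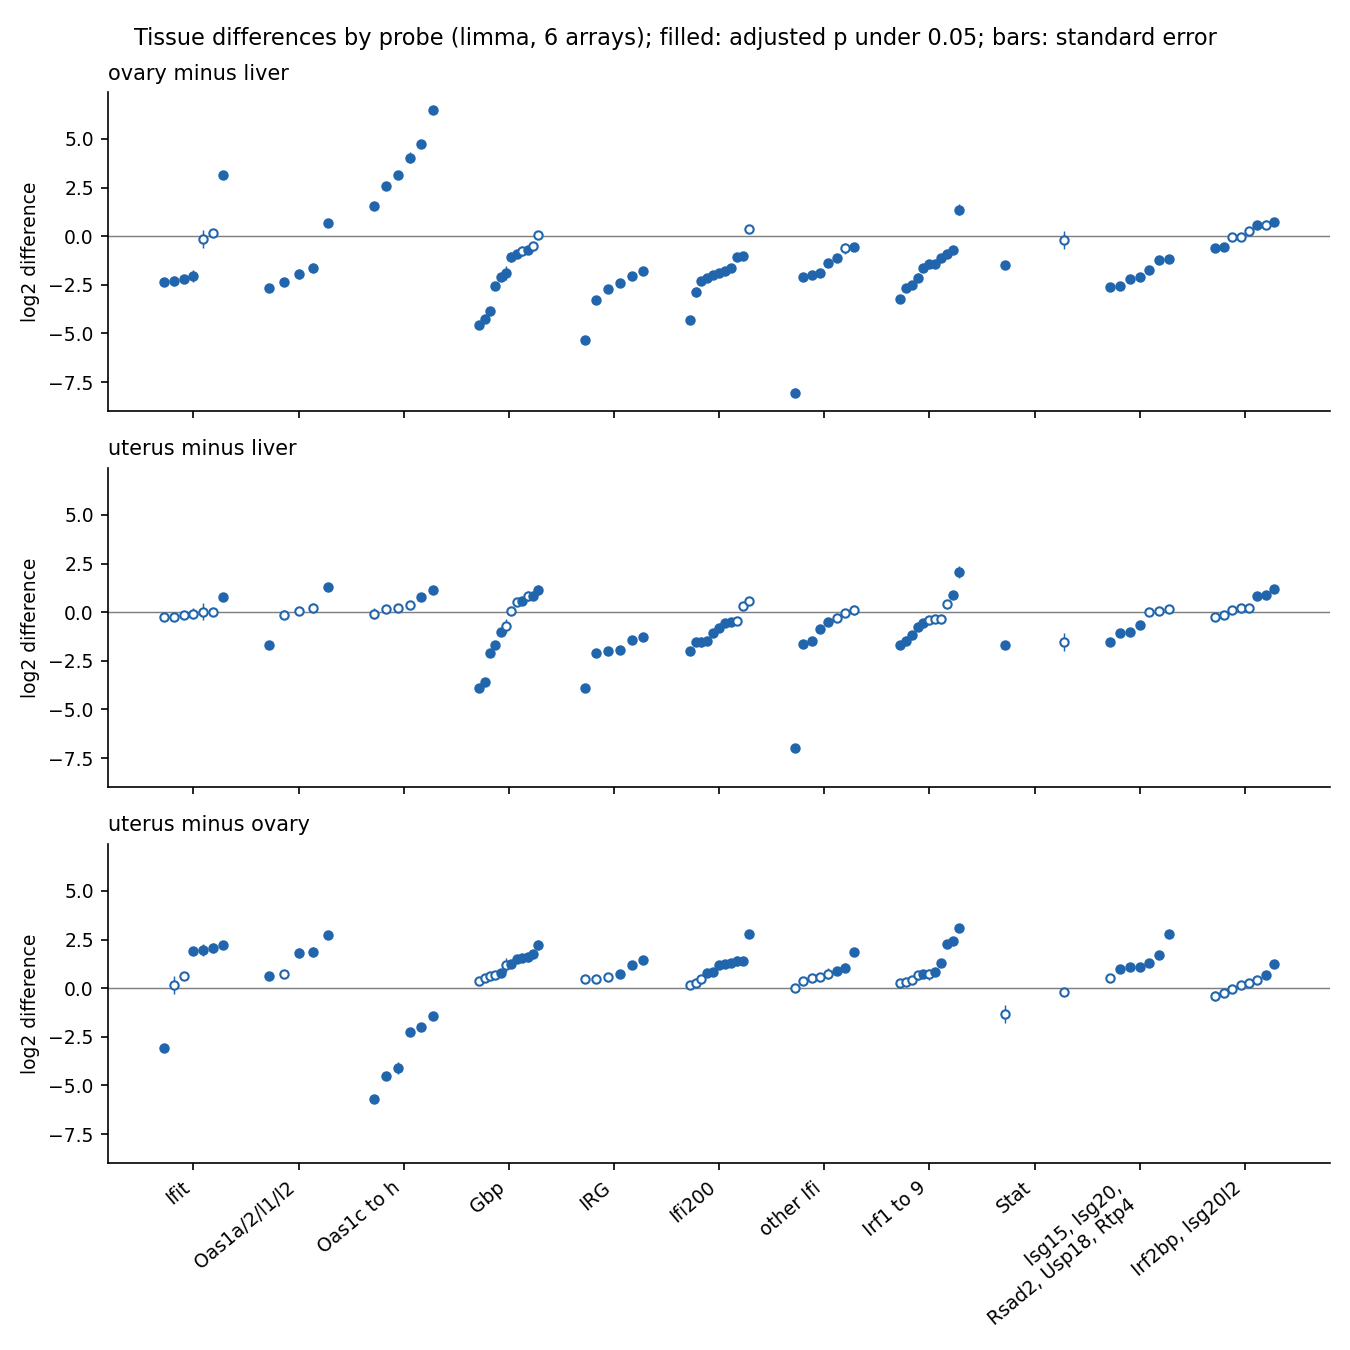
Log2 difference between tissues for each of the 83 probes by family, from the limma fit over the 6 arrays (points, with bars of 1 standard error; filled where the adjusted p was under 0.05). Most families lie below 0 for the ovary against the liver, with a median over all 83 probes of -1.64, whereas the 6 probes of Oas1c to Oas1h lie above it.

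The ligands and receptors were followed through a list of 16 genes, of which 12 gave a signal on at least 1 array, with 15 probes. In the liver 3 of 14 evaluated probes were at least 2-fold higher with BHPF, in the ovary 0 of 13 and in the uterus 0 of 14. None was 2-fold lower, and all 3 were dim. Over all evaluated probes with a symbol, 3.1%, 0.498% and 2.09% were higher and 1.48%, 0.661% and 0.803% lower in the same order. Ifng, the gene of interferon gamma, lay at -5.12 in the control liver and -4.07 with BHPF, at -5.15 and -5.33 in the ovary, and at -3.81 and -3.56 in the uterus. Ifna1, a type I interferon, was at -4.83 and -3.18 in the liver, a ratio of 1.65, and its ratios in the ovary and uterus were 0.18 and 0.11. The Ifna2 probe was well above background on the BHPF liver array only. Ifne was well above background only in the uterus, at -1.21 in the control and -1.92 with BHPF, a ratio of -0.72. Its mean uterine level was at least 22.1-fold that of the ovary and at least 13.0-fold that of the liver, taken against the lowest level called well above background on the dim arrays. Ifnb1, the gene of interferon beta, gave no signal above background on any array.

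The receptor genes were measured on every array and stayed within 2-fold. Ifnar2 was at 2.92 and 2.70 in the control and BHPF liver, 1.25 and 1.08 in the ovary, and 1.29 and 1.39 in the uterus, and it was called higher in the liver than in both other tissues. The ratios of Ifngr1 ranged from -0.16 in the liver to 0.09 in the uterus, and those of Ifngr2 from -0.32 in the ovary to 0.07 in the liver. The 3 probes of Ifnar1 had ratios between -0.40 and 0.28. Of 30 probes of kinases, sensors and their adaptors, such as Jak1, Tyk2, Tlr3 and Myd88, 0 changed by 2-fold in any tissue. Their medians were -0.076, -0.044 and -0.093 in the liver, ovary and uterus. Over all evaluated probes with a symbol, 3.1%, 0.498% and 2.09% were 2-fold higher and 1.48%, 0.661% and 0.803% lower.

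Among the transcription factors of the pathway, Irf7, the factor that amplifies type I interferon production, had the lowest ratios. It stood at -0.67 in the control liver and -1.37 with BHPF, at -3.25 and -3.83 in the ovary, and at -2.37 and -3.06 in the uterus. The BHPF array was the lower in each tissue, with ratios of -0.70, -0.58 and -0.69, and no tissue's pair overlapped another's. Across the tissues the difference was -0.66 ± 0.105 (standard error, 6 arrays; limma adjusted p = 0.77), and with the uterus arrays exchanged it was -0.20. Between tissues Irf7 was called in all 3 comparisons: the difference was -2.52 for the ovary against the liver, -1.69 for the uterus against the liver and 0.83 for the uterus against the ovary.

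Of the other factors, Irf2, Irf5 and Irf8 were lower with BHPF in the liver beyond 3 SDs of the spot noise, with ratios of -0.52, -0.52 and -0.49. Irf1 at its brighter probe was higher there by 0.51. Scaling on the 50th percentile lowered the liver ratios, with a median over all probes with a symbol of -0.30. It brought Irf1 within 3 SDs and moved Irf2, Irf5 and Irf8 lower still. The ratios of Irf2, Irf5 and Irf8 lay between -0.18 and -0.15 in the ovary and between -0.04 and 0.22 in the uterus. Stat2 had ratios of -0.06, -0.05 and -0.04 in the liver, ovary and uterus, and it stood at 2.48 in the control liver against 0.97 in the control ovary and 0.77 in the control uterus. Irf9, the partner of STAT2, had ratios of -0.20, -0.21 and -0.14. Irf1 at its brighter probe was at 0.78 and 1.30 in the liver, 0.19 and 0.43 in the ovary, and 0.73 and 0.70 in the uterus. Irf3, which acts before interferon is made, had ratios between -0.05 and 0.02, and its uterine difference from the liver, -0.58, became 0.22 with quantile normalisation. In the liver 9 of 10 evaluated probes of Irf1 to Irf9 lay below 0, in the ovary 5 of 11 and in the uterus 6 of 11. Over all evaluated probes with a symbol the shares were 47.8%, 46.3% and 48.2%. Irf4, a factor of lymphocytes, was called higher in the uterus than in both other tissues, by 0.89 over the liver and 2.30 over the ovary. Irf2bpl, a relative of an Irf2 binding partner, was called highest in the uterus at 1 of its 2 probes, by 1.21 over the liver and 1.25 over the ovary. Scaled on the 50th percentile, Irf4 was not called between uterus and liver (0.43).

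The Ifit genes held both probes that passed 2-fold. Ifit3 was at 1.01 and 1.60 in the control and BHPF liver, at -1.44 and -0.03 in the ovary, and at 1.04 and 1.43 in the uterus. It was thus the higher with BHPF in each tissue, with ratios of 0.59, 1.41 and 0.40 and a mean difference of 0.80 ± 0.244 (standard error, 6 arrays; limma adjusted p = 0.77). The uterine Ifit3 ratio lay within 3 SDs of the spot noise and has the opposite sign with the uterus arrays exchanged. Ifit3b, its neighbour and close relative, did not share the liver value. The first Ifit3b probe gave ratios of -0.24, 0.55 and 0.35 and the second -0.26, 0.38 and 0.15 in the liver, ovary and uterus. In the ovary the Ifit3 ratio exceeded both of these, and no test of that gap was possible with 1 array per group. No gene with several probes in these families had ratios more than 1 apart in a tissue.

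Ifit1bl2 was at -1.08 in the control liver and 0.34 with BHPF, while its other 4 levels lay between -0.54 and -0.28. The control liver array was thus the lowest of the 6 and the BHPF liver array the highest, whereas its ratios in the ovary and uterus were 0.06 and -0.12. Ifit1, which lies beside it, was lower with BHPF in each tissue, at 0.73 and 0.32 in the liver, -1.50 and -1.82 in the ovary, and 0.34 and 0.19 in the uterus. Ifit2 had ratios of -0.06, 0.37 and 0.11. In the comparison of tissues, Ifit1, Ifit3 and both Ifit3b probes were called lower in the ovary than in the liver, with differences of -2.04 to -2.37, and were not called between uterus and liver. Ifit1bl1 had the opposite pattern, at -2.10 and -1.65 in the ovary, -5.16 and -4.86 in the liver, and -5.27 and -4.67 in the uterus, and its BHPF liver level was not well above background.

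**Figure D3:**
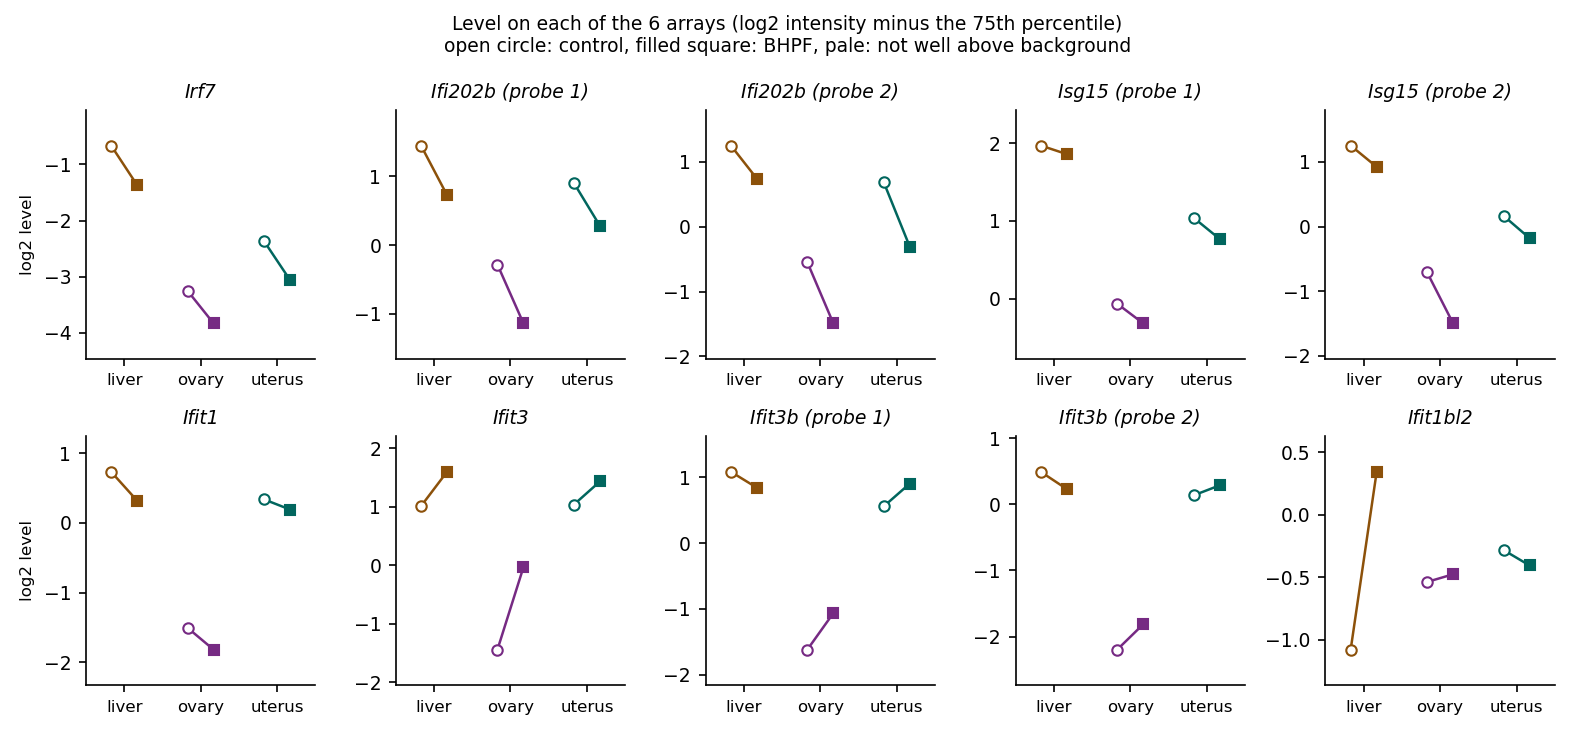
Level on each of the 6 arrays (log2 of intensity minus the 75th percentile of the array) for Irf7, Ifi202b, Isg15, Ifit1, Ifit3, Ifit3b and Ifit1bl2, with 1 panel per probe, an open circle for the control and a filled square for the BHPF array of each tissue. Irf7 and Ifi202b are lower with BHPF in each tissue, Ifit3 is higher in each (0.59, 1.41 and 0.40), and Ifit1bl2 is past 2-fold in the liver (1.43). The uterine ratio of Ifit3 lies within 3 SDs of the spot noise.

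The promoters of these Ifit genes are shown because members with the same response element differed in direction. The element was searched as GAAA, 2 bases of any kind and GAAA on both strands (RefSeq, mouse build GRCm38.p6), and capitals mark the match nearest the start among those in the 250 bases before it. Ifit3 (chr19:34583392-34583431, plus strand) and Ifit3b (chr19:34607788-34607827, plus strand) carried the same 40 bases, and their upstream regions shared an identical run of 169 bases. Ifit1 (chr19:34640789-34640828, plus strand) and Ifit1bl2 (chr19:34640770-34640809, minus strand) point away from each other, and their promoter windows overlapped by 245 bases. Ifit1bl1 (chr19:34602048-34602087, minus strand) is shown for its higher level in the ovary than in the liver and uterus. The window of another Ifit1bl1 start also held a match (stretch chr19:34599428-34599465, minus strand), which is not shown.
Ifit3: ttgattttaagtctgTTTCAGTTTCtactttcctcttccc
Ifit3b: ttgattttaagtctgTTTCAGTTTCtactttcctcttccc
Ifit1: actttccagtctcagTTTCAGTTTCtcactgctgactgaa
Ifit1bl2: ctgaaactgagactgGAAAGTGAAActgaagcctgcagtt
Ifit1bl1: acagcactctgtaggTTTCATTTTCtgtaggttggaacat

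In the Oas family, known for enzymes that make the 2-5A messenger of RNase L, Oas1a, Oas2 and Oasl1 were called lower in the ovary than in the liver and the ovarian relatives higher. Oas1a at its first probe was at 0.02 and -0.12 in the control and BHPF liver, at -2.44 and -2.98 in the ovary, and at 0.16 and -0.15 in the uterus. Oas2 was at -2.50 and -2.41 in the liver, -3.99 and -4.22 in the ovary, and -1.86 and -2.65 in the uterus. The ovary was the lowest tissue for both, with differences from the liver of -2.66 for Oas1a and -1.66 for Oas2 (limma adjusted p = 0.0012 and 0.0094), and liver and uterus were not called different. The 5 probes of Oas1a, Oas2, Oasl1 and Oasl2 all had ratios below 0 in the ovary and in the uterus. In the liver 3 of 5 did. Over all evaluated probes with a symbol the shares were 46.3%, 48.2% and 47.8% in the same order. The lowest ratios of the 5 probes were uterine, -0.82 at the second Oas1a probe and -0.79 for Oas2. Oasl2 was called highest in the uterus, by 0.64 over the ovary and 1.30 over the liver, and it was also called higher in the ovary than in the liver, by 0.66 (limma adjusted p = 0.016).

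Oas1c, Oas1d, Oas1e, Oas1f and Oas1h, relatives known for expression in the ovary, were the reverse. Oas1e was at 2.83 and 2.75 in the control and BHPF ovary, at -3.59 and -3.83 in the liver, and at -3.00 and -2.83 in the uterus. The difference was 6.50 ± 0.162 for the ovary against the liver and -5.71 ± 0.162 for the uterus against the ovary (standard errors, 6 arrays; limma adjusted p = 0.00066 and 0.0018). The 5 probes measured on all arrays, 1 for each gene, were called higher in the ovary than in both other tissues, with a median of 3.13 over the liver. Of all such probes with a symbol, 26.2% were higher in the ovary than in the liver and 10.2% lower in the uterus than in the ovary. A further Oas1h probe was not well above background in the liver or uterus, and its ovarian level was, bounded in the same way, at least 4.15-fold that of the liver and at least 4.67-fold that of the uterus. Their ratios with BHPF ran from -0.08 to 0.12 in the ovary. The oocyte markers Gdf9 and Zp3 were likewise brightest in the ovary, at 2.24 and 2.56 for Gdf9 in the control and BHPF ovary.

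**Figure D4:**
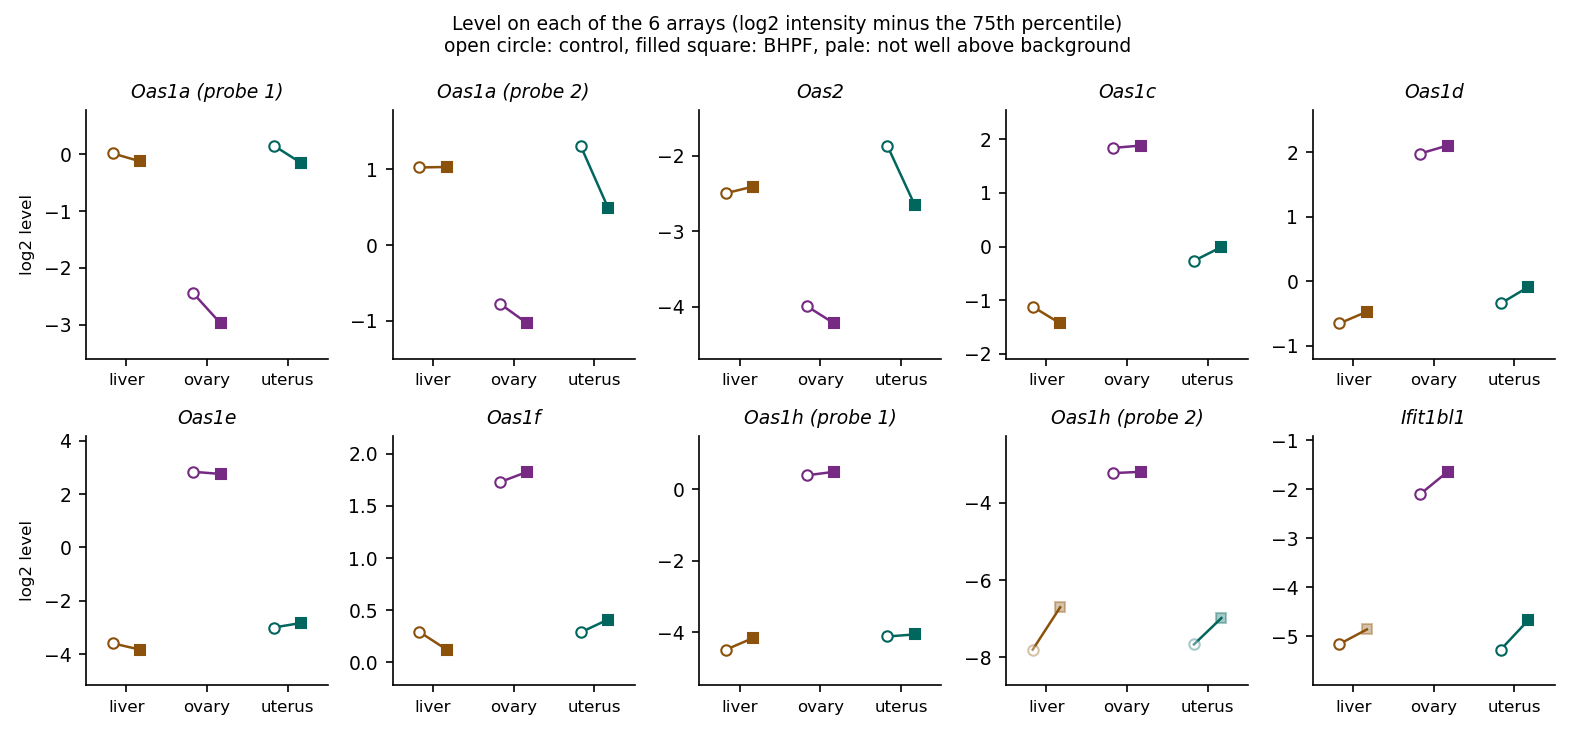
Level on each of the 6 arrays (log2 of intensity minus the 75th percentile of the array) for the Oas1 genes, Oas2 and Ifit1bl1, 1 panel per probe, with an open circle for control, a filled square for BHPF and pale symbols where the probe was not well above background. Oas1a and Oas2 are lowest in the ovary, and Oas1c, Oas1d, Oas1e (2.83 and 2.75), Oas1f, Oas1h and Ifit1bl1 are highest there.

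The promoters of a gene of each kind are given because both held the response element although their tissue patterns were opposite. The stretch of Oas1a (chr5:120907526-120907554, minus strand) ended at the start of the gene, with 4 bases between the match and the start, and in that of Oas1c (chr5:120812598-120812637, minus strand) 98 bases lay between the match and the start. The windows of Oas1f and Oas1h held no match, and Oas1d and Oas1e had no window in the table.
Oas1a: ccttctcgggaaatgGAAACTGAAAatct
Oas1c: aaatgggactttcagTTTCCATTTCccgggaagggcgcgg

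The regulators Isg15, Usp18 and Rtp4 and the antiviral enzyme gene Rsad2 were called higher in the liver than in the ovary and stayed within 2-fold with BHPF. The first Isg15 probe was at 1.97 and 1.86 in the control and BHPF liver, -0.06 and -0.32 in the ovary, and 1.04 and 0.77 in the uterus. The second probe was at 1.25 and 0.92, -0.71 and -1.50, and 0.17 and -0.18 in the same order. Both were lower with BHPF in each tissue, but in the ovary by unequal amounts, with ratios of -0.25 and -0.79. Usp18 had ratios of 0.30, 0.00 and -0.11 and Rtp4, a receptor chaperone, of 0.17, -0.10 and -0.26, while Rsad2, which encodes viperin, had ratios of -0.35, -0.20 and 0.12. Rsad2 was called lower in the ovary than in the liver (-2.61, limma adjusted p = 0.0014) and was not called between uterus and liver (0.15, adjusted p = 0.51). Of the 7 probes of Isg15, Isg20, Rsad2, Usp18 and Rtp4, 5 lay below 0 in the liver and 6 in the ovary and in the uterus. Over all evaluated probes with a symbol the shares were 47.8%, 46.3% and 48.2%.

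The immunity-related GTPases, which act on intracellular pathogens, had the largest median excess in the liver among the families. All 6 probes of Iigp1, Igtp, Irgm1 and Irgm2 were called lower in the ovary and in the uterus than in the liver, against 37% and 33.3% of probes with a symbol measured on all arrays, with median differences of -2.57 and -1.96. The more liver-specific Iigp1 probe was at 2.79 and 2.80 in the control and BHPF liver, -2.52 and -2.60 in the ovary, and -1.25 and -0.94 in the uterus. Irgm1 at its first probe had ratios of 0.18, -0.11 and -0.19. Igtp was at 2.45 and 2.64 in the liver, -0.76 and -0.75 in the ovary, and 0.48 and 0.41 in the uterus. The levels of the 2 treatments thus lay close together in each tissue as measured. The ratios of the 6 probes ran from -0.16 to 0.18 in the liver, from -0.11 to 0.20 in the ovary and from -0.21 to 0.31 in the uterus. With liver RNA subtracted at the upper quartile share, the uterine ratios ran from -0.25 to 0.11. At the share of the hepatocyte markers they ran from -3.82 to -0.34. The -3.82, of the more liver-specific Iigp1 probe, was set by the floor of that subtraction.

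Of the 12 Gbp probes, all measured on every array, 9 were called lower in the ovary than in the liver and 0 higher, against 37% and 26.2% of such probes with a symbol. Gbp2b was the most liver-specific of them, at 0.70 and 0.62 in the liver, -3.48 and -3.68 in the ovary, and -3.12 and -2.71 in the uterus at the first probe. Gbp2, Gbp3 and Gbp5 were instead called highest in the uterus, where Gbp2 exceeded the liver by 0.82 and the ovary by 0.77; scaled on the 50th percentile, 0 of these 3 were called against the liver (0.36 for Gbp2). Gbp10 went in opposite directions, from -1.35 to -0.55 in the liver and from -1.40 to -1.90 in the uterus. Gbp6 was higher with BHPF in each tissue at one probe (0.44, 0.23 and 0.35) but not at the other (0.42, 0.21 and -0.16). With liver RNA subtracted at the share of the hepatocyte markers, the uterine ratio of 0.35 became -0.32.

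The promoters of Igtp (chr11:58199507-58199546, plus strand) and Irgm2 (chr11:58214898-58214937, plus strand) are shown because these neighbouring genes were both called highest in the liver and resembled each other in sequence around the element, and that of Gbp2b (chr3:142594695-142594734, plus strand) as the member most confined to the liver among the Gbp genes with a window.
Igtp: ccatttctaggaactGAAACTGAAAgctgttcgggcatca
Irgm2: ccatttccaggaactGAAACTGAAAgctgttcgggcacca
Gbp2b: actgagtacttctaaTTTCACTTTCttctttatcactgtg

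The Ifi200 group, which encodes proteins that bind DNA in the nucleus or cytoplasm, held Ifi202b, the other gene that was lower in all 3 tissues beyond the spot noise. Ifi202b was at 1.44 and 0.73 in the control and BHPF liver, -0.28 and -1.14 in the ovary, and 0.90 and 0.28 in the uterus at its first probe. The second probe was at 1.25 and 0.74, -0.55 and -1.49, and 0.68 and -0.31 in the same order. The BHPF array was the lower in each tissue at both probes. Across the tissues the differences were -0.73 ± 0.112 and -0.82 ± 0.149 (standard errors, 6 arrays; limma adjusted p = 0.77 for both), and with the uterus arrays exchanged they were -0.32 and -0.15. Ifi204 was also lower in each tissue, with ratios of -0.30, -0.41 and -0.18, whereas Ifi211 was higher in each, with 0.57, 0.25 and 0.16. Of the 9 probes of the group that were measured on all arrays, 8 were called lower in the ovary than in the liver and 0 higher, against 37% and 26.2%. Of the other Ifi genes, 1 Ifi27l2b probe was well above background in the liver only, at 0.75 and 0.31. This was at least 94.7-fold over the ovary and at least 62.6-fold over the uterus. The other Ifi27l2b probe was well above background on all 6 arrays. It was at -2.35 and -2.15 in the liver, -4.44 and -4.07 in the ovary, and -3.83 and -3.98 in the uterus. That probe was also called higher in the liver than in both other tissues, but by far less than those bounds. Ifi30, a lysosomal reductase, had ratios of -0.48 in the liver and 0.44 in the uterus.

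The ratios of Irf7 and Ifi202b stood beside a lower signal of neutrophil markers with BHPF. Of 8 neutrophil marker probes (7 of 8 genes of the list), 7 were at least 2-fold lower in the liver, 5 in the ovary and 4 in the uterus. The shares over all evaluated probes with a symbol were 1.48%, 0.661% and 0.803%. The medians of the neutrophil probes were -2.55, -1.61 and -0.93. Their summed intensity relative to the 75th percentile went from 54.4 to 23.7 in the liver, 13.8 to 11.4 in the ovary and 30.9 to 28.5 in the uterus. S100a8, a calcium-binding protein of neutrophils, was at 3.26 and 0.54 in the liver, -0.72 and -3.85 in the ovary, and 0.86 and -0.66 in the uterus. The brightest gene of the list, Csf3r, had ratios of -0.15, -0.01 and 0.03. B cell markers had medians of -1.13, -0.76 and -0.25 (3, 3 and 2 evaluated probes), general leukocyte markers of -0.11, -0.40 and 0.09, macrophage markers of -0.20, -0.60 and 0.02, T cell markers of 0.30, -0.10 and 0.35 and NK cell markers of 0.46, -0.32 and 0.41. Plasmacytoid dendritic cell markers had medians of 0.04, 0.04 and -0.06 and Kupffer cell markers of -0.08, 0.12 and 0.66. The part of these cells in the ratios of Irf7 and Ifi202b was not tested.

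**Figure D5:**
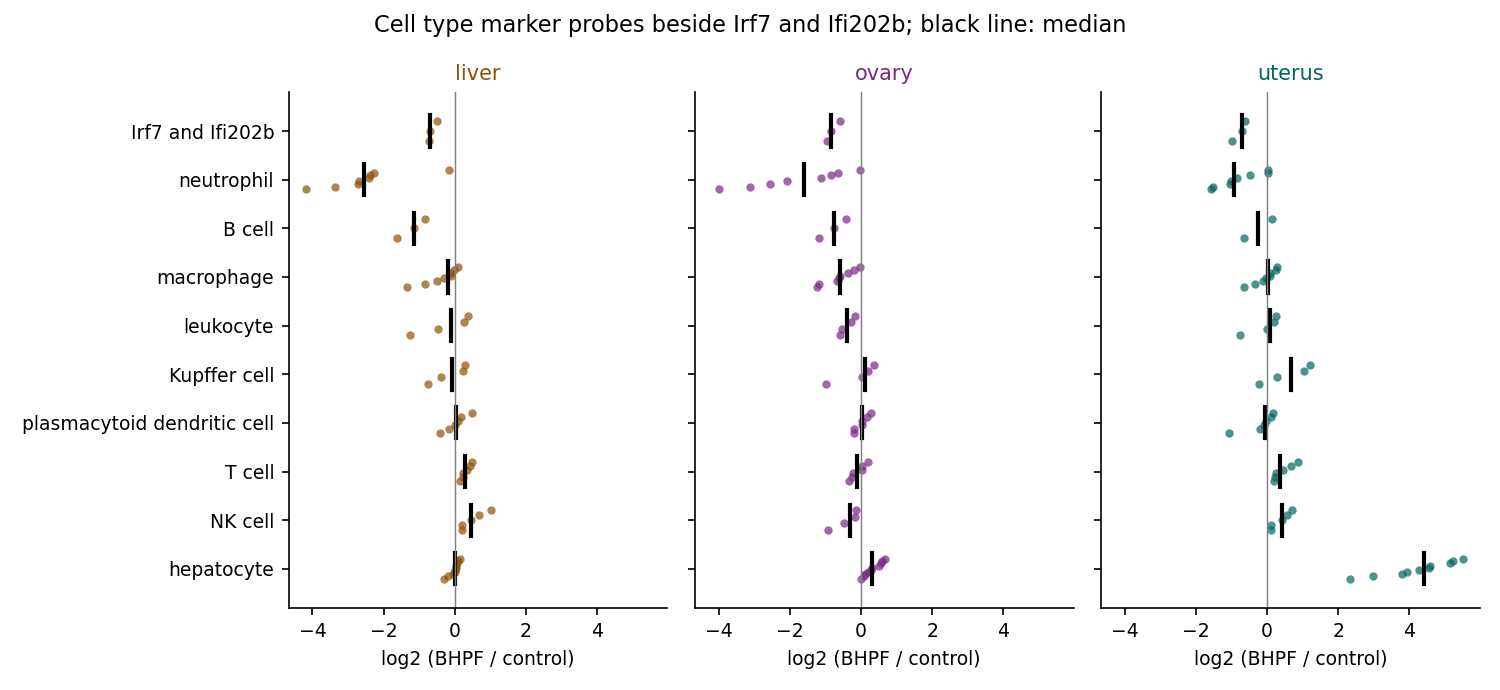
Log2 ratio of BHPF over control of each evaluated marker probe (points) of 9 cell type lists, beside Irf7 and Ifi202b, in the liver, ovary and uterus, with a black line at the median of each list. The neutrophil medians are -2.55, -1.61 and -0.93, and the hepatocyte markers are higher in the BHPF uterus, with a median of 4.41.

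A further list of interferon-induced genes outside these families, such as Bst2, Cxcl10 and the Parp and Trim genes, also held few values past 2-fold. Of its probes, 0 of 56 changed by 2-fold in the liver, against 3.1% higher and 1.48% lower of all evaluated probes with a symbol. In the ovary 1 of 57 was 2-fold lower (Pml, -1.25, where its other probe gave 0.14) and 0 were higher, against 0.661% and 0.498%. In the uterus 1 of 55 was 2-fold higher (Cxcl10, 1.22) and 0 were lower, against 2.09% and 0.803%. Cxcl10, a chemokine, was at -0.37 and 0.42 in the control and BHPF liver, -2.21 and -2.52 in the ovary, and -1.78 and -0.56 in the uterus. Between tissues 35 of its 52 probes measured on all arrays were called lower in the ovary than in the liver and 1 higher, against 37% and 26.2% of such probes with a symbol.

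The promoter windows of the families, from 250 bases before to 50 after a start, were available for 46 of the 63 genes (55 windows). The response element, spelt as above, lay in 24 of these windows (43.6%), against 3.44% of all 32851 windows in the table. The gamma-activated site TTCNNNGAA lay in 13 (23.6%), against 8.3%, and the matches of the 2 motifs overlapped in 0 windows. Of 28 probes measured on all arrays of genes with the response element, 23 were called lower in the ovary than in the liver and 1 higher. Of 29 such probes of genes with a window but no match, 18 were lower and 5 higher, and the shares over all such probes with a symbol were 37% and 26.2%. With BHPF the median ratios were -0.07, -0.08 and -0.04 in the liver, ovary and uterus for the genes with the element and -0.16, 0.02 and -0.01 for those without. The windows of Irf7 and Ifi202b held no match to the response element, and that of Ifi202b held a match to the gamma-activated site.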

How the data were processed

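Total RNA of the liver, ovary and uterus was pooled from 3 mice per group, labelled with Cy3 and hybridised to 1-colour Agilent mouse 8 x 60K arrays. Spot values were taken by the authors from the scans with Agilent Feature Extraction (9.1 per the submitters' processing notes, 11.5.1.1 per the file headers), and the deposited scanner files hold a background-subtracted, detrended intensity per spot with calls for spots well above background. A table of log2 values by the authors, each the log2 intensity minus 1 constant per array, served as an alternative. No spot was saturated.

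Control and outlier spots were left out, spots of a probe were averaged (55681 probes), and log2 levels were set against the 75th percentile of each array. Between 61.3% and 74.5% of probes were well above background. RefSeq accessions gave 26756 probes a symbol (48.1%). A probe was evaluated in a tissue if either array called it well above background; on an array that did not, the higher of its own value and the lowest value called well above background was used. Changes were called at 2-fold, and shared shifts with limma 3.58.1 in R 4.3.3 (tissue and treatment as terms, 2 residual degrees of freedom, prior 1.939, adjusted p under 0.05). The fit was tried on simulated data with equal noise in every probe and the same change in every tissue, which these arrays need not have. Everything else was computed with Python 3.11.15, pandas 2.3.3 and numpy 2.4.6.

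The members and lists were chosen with earlier results of these data known. Values of 1 matched gene are included in the counts and medians but are not reported here. Genes named in the text were those past 2-fold, those with the largest mean ratio of 1 sign in all tissues and a list of main pathway genes. Of the genes called highest in 1 tissue, those with the largest differences were named. The other genes named for a marker, a flag or a contrast with a relative were chosen after their values were seen. Alternatives varied the background correction, the scaling, the filter, the table used, the fold and the arrays included.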

Additional observations from a re-analysis of the deposited data

Results flagged for a closer look

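Gbp10 and Ifi30 had ratios of opposite sign in the liver and the uterus, each beyond 3 SDs of the spot noise. Gbp10 was higher with BHPF in the liver by 0.80 on the log2 scale and had a uterine ratio of -0.50. Ifi30 had a ratio of -0.48 in the liver and 0.44 in the uterus. With 1 array per group the difference between the tissues was not tested, and under the headings of the authors' table both uterine ratios change sign.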

How the results depend on the processing

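Under each alternative that gave a fit, 0 probes were called for BHPF across the tissues. Each array was the only one of its group, so within a tissue none could be left out. The count of probes past 2-fold in the liver, 1, became 3 with scaling on the 50th percentile, 4 with no filter on dim probes and 5 at 1.5-fold, or 6.17% against 11.9% of all probes with a symbol. With the 50th percentile the liver median became -0.38, where the median over all probes with a symbol was -0.30. The count in the ovary, 1, became 4 at 1.5-fold, or 5% against 3.64%. The count in the uterus, 0, became 1 with the 50th percentile, 1 with liver RNA subtracted at the median share or at its upper quartile (Ifi202b), 5 at the 9.87% of the hepatocyte markers (both Gbp2b probes and 1 probe each of Iigp1, Ifi202b and Irf7, all lower, against 4.59% lower of all probes with a symbol), 1 with no filter and 7 at 1.5-fold, or 8.86% against 6.57%. At the 9.87% share, the BHPF levels of both Gbp2b probes and of the Iigp1 probe were set to the floor of the subtraction. The uterine median was 0.043 in the authors' table as headed. The shares other than the median were chosen after seeing the data. Leaving out 1 array at a time, likewise chosen afterwards, gave between 52 and 66 calls for ovary against liver (71 with all arrays), between 25 and 43 for uterus against liver (47) and between 6 and 51 for uterus against ovary (50). The lowest, 25 and 6, came without the BHPF uterus array. An array left alone in its tissue was assumed to vary as the others did. With quantile normalisation, 2 probes called between ovary and liver and 3 called between uterus and liver changed sign. Of 160 ratios of named genes recomputed under another setting, 127 moved by less than the spot SD and 33 by more. The cause of these changes was not tested. The fit across tissues, with tissue as a term, paired BHPF with control within each tissue, and with 1 array per tissue and treatment no other pairing could be tried.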
